A study of Mus musculus with 11 samples.

Results

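The CCN family consists of secreted matricellular proteins, and 5 of its genes (Ccn1, Ccn2, Ccn3, Ccn4 and Ccn5, formerly Cyr61, Ctgf, Nov, Wisp1 and Wisp2) were followed here out of 19938 genes with a probe set annotated to a single symbol. Each of the 5 was read by 1 probe set. The family was chosen by the level of Ccn3, which was higher in mutant than in control arrays, so the genotype differences of its members, alone or set against Slc17a7, are given as descriptions. The study hybridised RNA from the nucleus accumbens of 11 male mice aged 4 to 5 months to Affymetrix Mouse Gene 1.0 ST arrays. The groups were 5 RARβ-null mutants (Rarb-null), which lack retinoic acid receptor beta, and 6 wild-type (WT) littermates, all behaviourally naive. All came from heterozygous crosses on a mixed background of C57BL/6J and 129SvEms/j, and every array held 1 mouse. Shell-enriched accumbens was taken with a 0.5 mm punch, and the labels do not say how much neighbouring tissue each punch held. Levels are on the log2 scale of the authors' RMA (robust multi-array analysis), and each difference is Rarb-null minus WT on that scale.

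CCN proteins are secreted into the extracellular matrix, where they bind integrins, heparan sulphate proteoglycans and LRP receptors and modulate growth factor signals rather than build the matrix itself. Ccn1 and Ccn2 are classical targets of the Hippo pathway effectors YAP and TAZ with their TEAD partners, and Ccn2 is also induced by TGF-beta. Ccn1 behaves as an immediate early gene in many cells. Ccn3 can bind Notch1 and often opposes Ccn2, Ccn4 was found as a gene induced by Wnt1, and Ccn5 differs from the other members in lacking the C-terminal cystine-knot module. In the mouse cortex Ccn2 is a known marker of layer 6b, a thin sheet of neurons above the white matter.

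The labels were checked against Rarb itself, which averaged 9.89 ± 0.11 in 5 Rarb-null arrays and 11.75 ± 0.04 in 6 WT arrays (SD), with no overlap (exact permutation p = 0.00216, two-sided, the smallest that 462 splits allow). Pairwise correlations between arrays ran from 0.989 to 0.997. Markers of striatal projection neurons were high in all arrays, at a mean of 11.69 to 11.82 in Rarb-null and 11.97 to 12.04 in WT arrays for 10 measured genes. The cortical marker Slc17a7, which encodes the vesicular glutamate transporter of cortical excitatory neurons, stood apart in 3 arrays, reading 11.69 in Rarb-null replicate 5 against 9.17 and 9.45 in WT replicates 3 and 4. Because the tissue was measured in bulk, fewer cells of a type and less RNA per cell cannot be told apart. No member lies on the chromosome of Rarb (0 of 5 in the RefSeq gene table of assembly GRCm38.p6).

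Ccn3 was higher on average in Rarb-null accumbens, with a wide spread in both genotypes. It read 9.36, 8.95, 9.04, 8.79 and 9.66 in Rarb-null replicates 1 to 5, against 8.06, 9.07, 7.73, 7.55, 8.73 and 8.72 in WT replicates 1 to 6. WT replicates 2, 5 and 6 lay close to or within the Rarb-null range, while WT replicates 3 and 4 were the lowest. The mean was 9.16 ± 0.35 in Rarb-null (n = 5) and 8.31 ± 0.62 in WT arrays (n = 6), a difference of 0.85 (SE 0.26) or 1.80-fold. With Rarb-null replicate 5 and WT replicates 3 and 4 set aside, the arrays with the most extreme Slc17a7 levels, the difference was 0.39 (SE 0.19). These were also the highest Rarb-null and the lowest WT arrays for Ccn3, so setting them aside had to lower its difference. Leaving out 1 array at a time, the check given for Ccn2 as well, left a difference of 0.70 to 1.00.

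Ccn2 was higher in every Rarb-null array than in any WT array. Its level was 8.72, 8.90, 8.96, 8.80 and 9.44 in Rarb-null replicates 1 to 5, against 7.98, 8.68, 7.998, 7.80, 8.32 and 8.11 in WT replicates 1 to 6. The gap between the groups was narrow, since WT replicate 2 almost reached Rarb-null replicate 1, and Rarb-null replicate 5 stood above the rest. Means were 8.96 ± 0.28 in Rarb-null and 8.15 ± 0.31 in WT arrays, a difference of 0.82 (SE 0.15) or 1.76-fold. The difference was 0.70 to 0.93 when 1 array at a time was left out.

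Ccn5, known for restraining the growth of vascular smooth muscle, showed a smaller difference with a tighter spread. The gene was dim, at the 42.7th percentile of genes by mean level. It read 7.14, 7.39, 7.29, 7.32 and 7.30 in Rarb-null replicates 1 to 5, against 7.00, 7.15, 7.13, 7.06, 7.02 and 7.00 in WT replicates 1 to 6. Rarb-null replicates 2 to 5 exceeded every WT array, and Rarb-null replicate 1 lay just below WT replicate 2. Means were 7.29 ± 0.09 in Rarb-null and 7.06 ± 0.07 in WT arrays, a difference of 0.23 (SE 0.046) or 1.17-fold, and 0.19 with quantile normalisation repeated or 0.27 with arrays centred.

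Ccn1, the immediate early member, had nearly the same level in both genotypes. It was dim as well, at the 44th percentile of genes by mean level. It ran from 7.21 to 7.35 (median 7.25) in Rarb-null arrays, inside the WT range of 7.10 to 7.45. The difference was 0.04 (SE 0.057), smaller than its error, and it ran from -0.03 to 0.08 over the alternatives tried.

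Ccn4 was the dimmest member. Its mean level, 5.84 ± 0.06 in Rarb-null and 5.69 ± 0.10 in WT arrays, lay below the level of 6.99 that a gene had to exceed to enter the comparison of all genes. Rarb-null arrays ran from 5.76 to 5.91 and WT arrays from 5.52 to 5.77, so the groups touched. The difference was 0.14 (SE 0.05) in a fit of all genes without that filter, and without WT replicate 6, the lowest array, it was 0.11. Ccn6, the sixth gene of the family, was not among the genes followed; its level was 6.81 ± 0.05 in Rarb-null and 6.71 ± 0.09 in WT arrays, also below the filter.

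**Figure D1:**
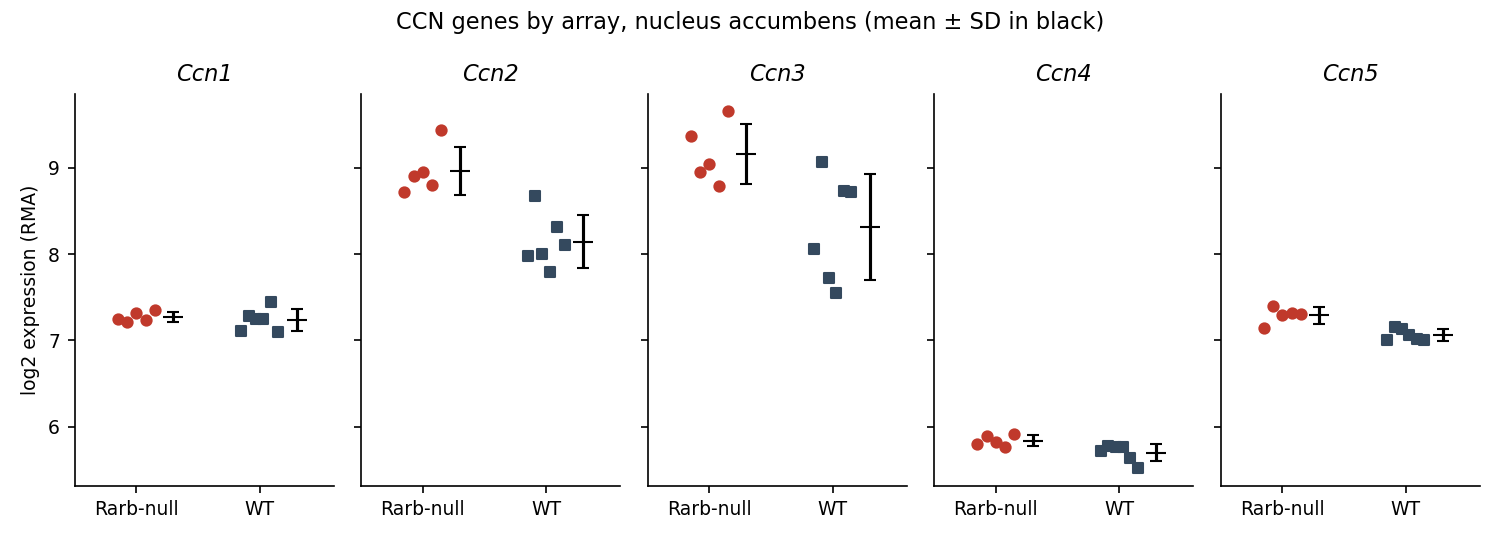
Each panel plots the log2 RMA level of 1 CCN gene (y axis) in 5 Rarb-null arrays (red circles, left) and 6 WT arrays (dark squares, right), with the mean ± SD in black. Ccn2 separates the groups, Ccn3 is higher on average but overlaps, Ccn5 differs slightly, and Ccn1 at 7.27 and 7.24 is level.

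Of the 4 members that entered the comparison of 11963 genes, 3 (Ccn2, Ccn3 and Ccn5) were past a limma Benjamini-Hochberg adjusted p of 0.05, all higher in Rarb-null arrays, where 19.6% of all genes tested were past it in either direction and 7.56% as higher. When 1 array was left out, Ccn3 kept its call in 4 of 11 fits, and Ccn2 and Ccn5 in 11 of 11. Since this contrast chose the family, nothing is read from these calls or their count. For 1 of the 5 members, Ccn2, no array of either genotype lay within the range of the other, and 11.2% of the genes tested separated in this way in either direction, 3.82% as higher. Over all genes tested 905 were higher and 1436 lower, or 1677 and 939 with each array centred on its median. The balance changed with the filter on level. Without it 1278 genes were higher and 1229 lower, and with a filter at the 60th percentile 510 and 1209. Whether the differences of the dim genes Ccn1, Ccn4 and Ccn5 share in this was not tested. The median difference of all genes tested was -0.017.

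Slc17a7 was uneven between mice and between genotypes. It read 11.13, 10.86, 11.00, 10.65 and 11.69 in Rarb-null replicates 1 to 5, against 10.02, 11.20, 9.17, 9.45, 10.82 and 10.36 in WT replicates 1 to 6. The Rarb-null arrays thus occupied the upper part of the range, but WT replicates 2 and 5 lay within it. The difference was 0.90 (SE 0.32) with a limma adjusted p = 0.0639, and it passed the threshold without WT replicate 2 (1.10) or WT replicate 5 (1.03). The order of the arrays by Slc17a7 was almost that by Ccn3. The lowest Rarb-null array for both genes was replicate 4 and the highest replicate 5, and WT replicate 2 was the highest WT array for both.

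**Figure D2:**
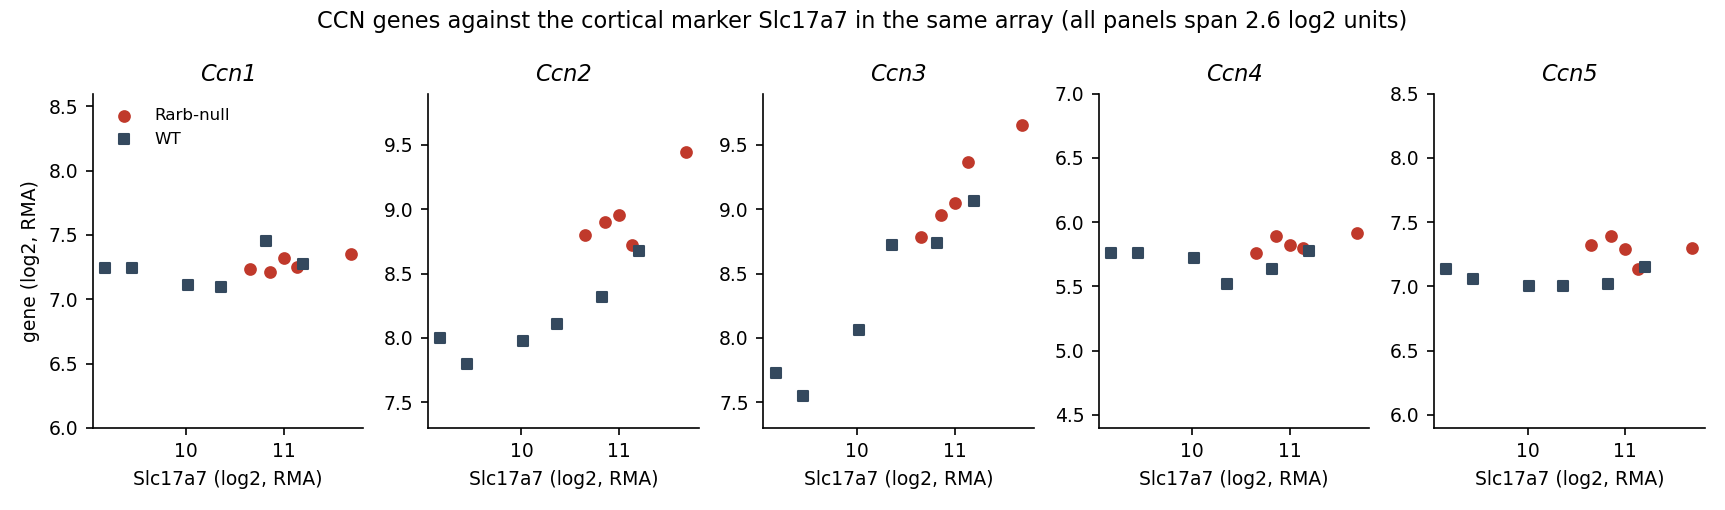
Each panel plots 1 CCN gene (y axis, log2 RMA level) against Slc17a7 in the same array (x axis, log2 RMA level), with Rarb-null arrays as red circles and WT arrays as dark squares and the same vertical span in all panels. Ccn3 rises along 1 band that holds both genotypes, Ccn2 rises along a band on which most Rarb-null arrays lie above WT arrays, and Ccn1, Ccn4 and Ccn5 are flat.

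With the Slc17a7 level of each array in the limma model beside genotype, the difference of Ccn3 was 0.16 (SE 0.10), against 0.85 without it. Ccn3 changed by 0.77 (SE 0.070) per unit of Slc17a7. Leaving out any 1 array kept the adjusted difference of Ccn3 between 0.12 and 0.23. With the mean of 6 measured cortical markers in place of Slc17a7 it was 0.17 (SE 0.13). The part of cortical tissue in the difference was not tested.

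Ccn2 kept a larger share of its difference in the same model. It was 0.47 (SE 0.11) higher in Rarb-null arrays at a given Slc17a7 level, with a slope of 0.39 (SE 0.075). Arrays of similar Slc17a7 level, picked after their values were seen, gave unequal gaps. In Rarb-null replicate 2 (Slc17a7 at 10.86) Ccn2 read 8.90, against 8.32 in WT replicate 5 (Slc17a7 at 10.82), whereas Rarb-null replicate 1 and WT replicate 2, at 11.13 and 11.20, read 8.72 and 8.68. A fit added after seeing the data had the mean level of 5 measured markers of layer 6b and claustrum neurons in place of Slc17a7. In it the difference of Ccn2 was 0.16 (SE 0.084) and that of Ccn3 -0.15 (SE 0.23). This marker mean did not overlap between genotypes, at 7.958 to 8.268 in Rarb-null and 7.619 to 7.949 in WT arrays. With no shared level, both values are extrapolations and not differences seen at a given marker level.

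The difference of Ccn5 moved little in these models. It was 0.24 (SE 0.061) with Slc17a7 and 0.21 (SE 0.076) with the layer 6b and claustrum markers, and its slope on Slc17a7 was -0.01 (SE 0.041). Ccn4 likewise gave 0.15 (SE 0.065) and Ccn1 -0.02 (SE 0.07) with Slc17a7 in the model. Of the 4 members tested, Ccn2 and Ccn5 were past the threshold of this fit, both as higher, where 9.77% of all genes were in either direction and 3.49% as higher. When 1 array was left out, Ccn2 was past it in 10 of 11 fits and Ccn5 in 7 of 11. The family was chosen with this comparison in view too, and nothing is read from these calls or their count.

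**Figure D3:**
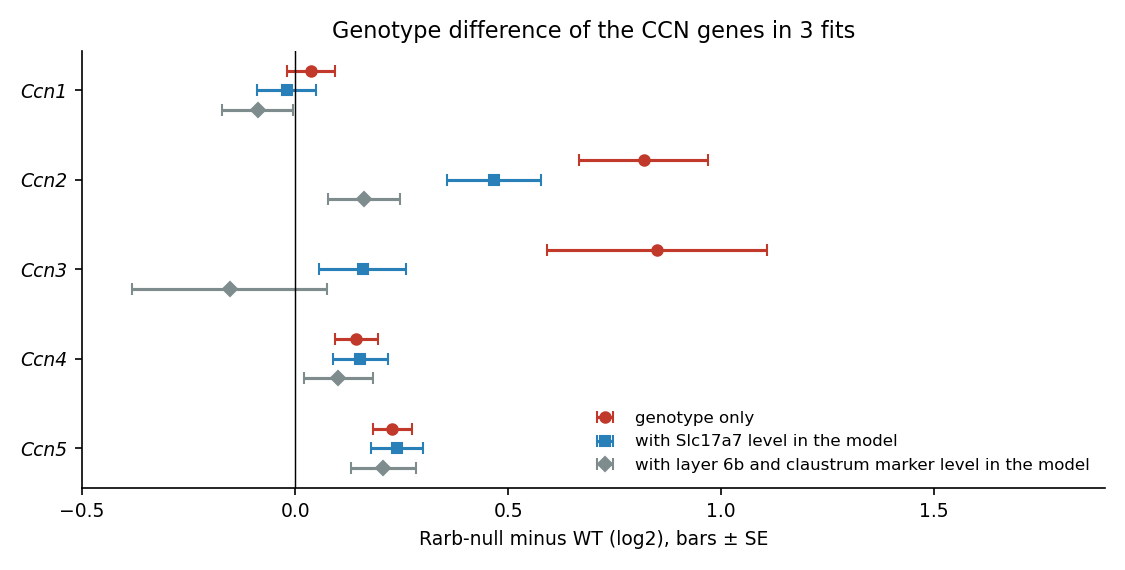
The x axis gives the difference of Rarb-null minus WT in log2 units with bars of ± SE, for each CCN gene in 3 limma fits: genotype only (red circles), with Slc17a7 in the model (blue squares) and with the mean of layer 6b and claustrum markers in the model (grey diamonds). Ccn3 lies at 0.85, 0.16 and -0.15 in the 3 fits and Ccn2 at 0.82, 0.47 and 0.16, while Ccn5 stays between 0.21 and 0.24. The fit with the layer 6b and claustrum mean is an extrapolation, since that mean did not overlap between genotypes.

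Variation between mice of the same genotype was examined by removing each genotype's mean. The members were then correlated with marker levels over 11 arrays. The 5 members and 10 measures (Slc17a7, 7 lists of cell type markers, immediate early genes and YAP targets) gave 50 relations, each with a two-sided exact permutation test over the 86400 reorderings within genotype. By Pearson's r, 6 passed after Benjamini-Hochberg adjustment over the 50, and 11 had an unadjusted p under 0.05. Those of Ccn2 and Ccn3 to Slc17a7 are among the 6. The Slc17a7 relations of all 5 members are among the 50, so they enter the adjusted p of the others. The members had been set against Slc17a7 in each array when the family was chosen. The relations to Slc17a7 are therefore given as descriptions, and nothing is read from the count of 6. The layer 6b and claustrum markers vary with Slc17a7. The relations of Ccn2 and Ccn3 to these markers, and that between Ccn2 and Ccn3, are therefore no independent support. Their adjusted p values are given as descriptions too.

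Ccn3 followed Slc17a7 closely within genotype, with r = 0.956 and Spearman's rho = 0.973. Without WT replicates 3 and 4, the arrays farthest from the median of Slc17a7, r was 0.936. In the 6 WT arrays alone r was 0.954 and rho 0.943. Ccn3 also followed the layer 6b and claustrum markers (r = 0.847, exact permutation adjusted p = 0.00174; rho = 0.964, adjusted p = 0.00289; r = 0.839 without the 2 arrays farthest from their median).

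Ccn2 followed both the layer 6b and claustrum markers and Slc17a7, and the difference between its r values was not tested. With the layer 6b and claustrum markers r was 0.955 (exact permutation adjusted p = 0.0123), a call lost without Rarb-null replicate 5 or WT replicate 2, 4 or 5. The relation did not pass by rank (rho = 0.755, exact permutation adjusted p = 0.189), and r was 0.912 (exact permutation p = 0.0236) without the 2 arrays farthest from the marker median. With Slc17a7 Ccn2 had r = 0.837 and rho = 0.736, and r = 0.896 without WT replicates 3 and 4. With astrocyte markers r was 0.768 and did not pass (exact permutation adjusted p = 0.0819).

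Ccn1, which did not differ between genotypes beyond its spread, varied with astrocyte markers between mice; whether it did so more than Ccn2 was not tested. The relation to the mean of 9 astrocyte genes had r = 0.868 (exact permutation adjusted p = 0.00328) and rho = 0.936 (adjusted p = 0.00367), with r = 0.847 without WT replicates 5 and 2, and it kept its call whichever array was left out. In the 6 WT arrays the order of the arrays by Ccn1 and by astrocyte markers was the same (rho = 1). Ccn1 also had r = 0.822 with other immediate early genes (exact permutation adjusted p = 0.0331), but rho = 0.718 did not pass (adjusted p = 0.189), and r was 0.609 (exact permutation p = 0.152) without WT replicate 5 and Rarb-null replicate 5. That call was also lost in 7 of the 11 fits without 1 array (Rarb-null replicate 2 or 5 or WT replicate 1, 2, 4, 5 or 6). With YAP target genes r was 0.709 (exact permutation adjusted p = 0.0518).

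Ccn4 and Ccn5 passed with no measure. Their r ran from -0.48 to 0.48, the extremes being Ccn5 with endothelial (-0.484) and mural cell markers (0.479). Among the members themselves 10 pairs were compared. Ccn2 and Ccn3 varied together (r = 0.806, exact permutation adjusted p = 0.0259 over 10 pairs; rho = 0.809, adjusted p = 0.0919), a call lost in 6 of the 11 fits without 1 array (Rarb-null replicate 5 or WT replicate 1, 2, 3, 4 or 5). The remaining 9 pairs had r from -0.20 to 0.54 and did not pass.

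**Figure D4:**
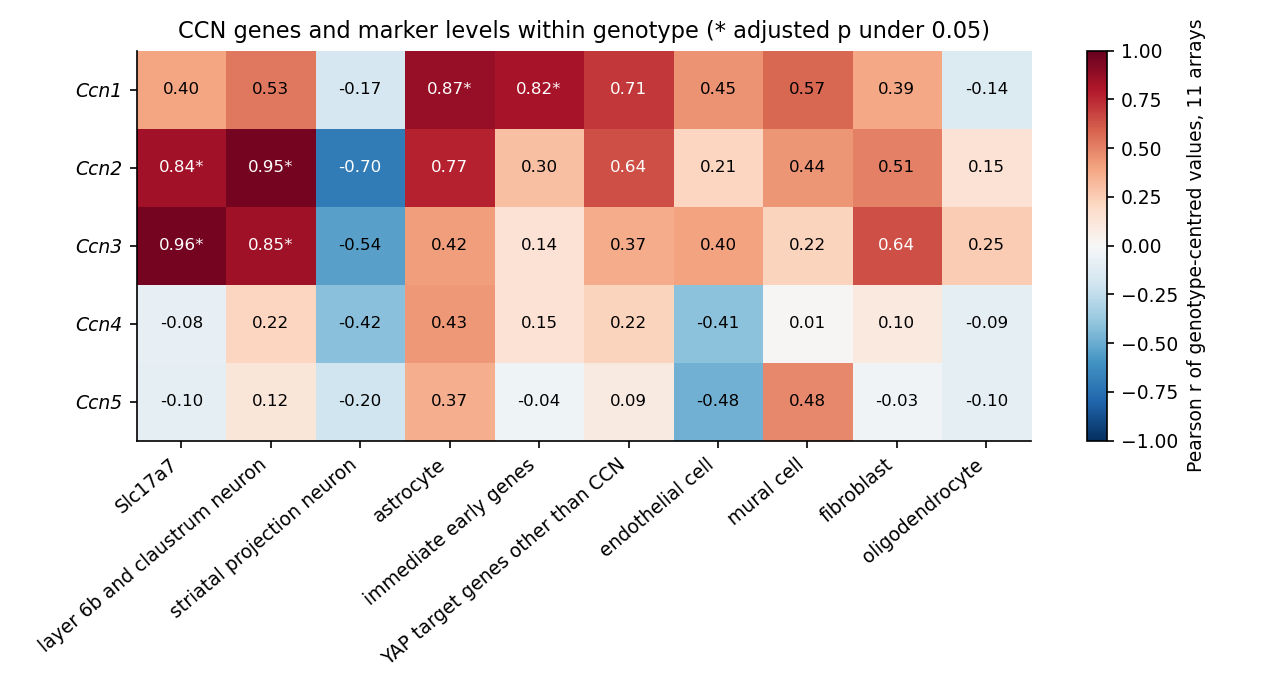
Rows are the CCN genes and columns the marker measures, and each cell gives Pearson's r of genotype-centred values over 11 arrays on a scale from blue (-1) to red (1), with an asterisk at an adjusted p under 0.05. Ccn3 and Ccn2 have an asterisk in the Slc17a7 and layer 6b columns (0.847 to 0.956 for Ccn3) and Ccn1 with astrocyte markers (0.868) and immediate early genes (0.822), Ccn2 has 0.768 with astrocyte markers and no asterisk, and Ccn4 and Ccn5 have no asterisk. The Slc17a7 column is a description, since the members were set against Slc17a7 when the family was chosen. The layer 6b markers vary with Slc17a7, so the asterisks of that column are no independent support.

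Among the other 11962 genes tested, those most like Ccn3 within genotype were ranked by Pearson's r over the 11 arrays, as a description in which all genes share the same libraries. Vxn came first (r = 0.972), followed by Aff2 (0.963), Cdh12 (0.957), Cck (0.957), the cholecystokinin precursor gene, and Slc17a7 (0.956). Tbr1 (0.942), a transcription factor gene of cortical excitatory neurons, C1ql3 (0.936) and Prss12 (0.929) completed the first 8. Ccn2 came 84th. Their genotype differences had both signs. Tbr1 gave 0.95 (SE 0.35), Cck 0.79 (SE 0.26) and Vxn 0.58 (SE 0.22), whereas Aff2 gave -0.19 (SE 0.053) and Cdh12 -0.18 (SE 0.16). By limma's adjusted p Cck (0.049) and Prss12 (0.0426) rose and Aff2 (0.0259) fell, and the other 5 did not pass. Cck kept its call only without WT replicate 2 or 5, Prss12 only without Rarb-null replicate 4 or WT replicate 2 or 5, and Aff2 lost it without Rarb-null replicate 2, 3 or 4 or WT replicate 5 or 6 and with arrays centred. Vxn, Tbr1, C1ql3 and Slc17a7 passed without WT replicate 2.

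Of 11 tested receptor and co-receptor genes of CCN proteins 3 fell and 0 rose, or 2 and 1 with arrays centred, with a median of -0.068, while 1436 of all 11963 genes tested fell. Without 1 array the falls numbered 2 to 3. Itga5, the alpha subunit of the fibronectin receptor, averaged 7.42 ± 0.09 in Rarb-null and 7.80 ± 0.14 in WT arrays (-0.38, SE 0.066, limma adjusted p = 0.00166), and Gja1, the gap junction gene of astrocytes, fell by 0.17 (SE 0.032, adjusted p = 0.00266). Neither lost its call without 1 array. The third was the Wnt co-receptor gene Lrp6 (-0.14, adjusted p = 0.0423), a call kept only without Rarb-null replicate 1 or WT replicate 2 or 5, and lost with arrays centred (-0.10).

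In the Hippo pathway most genes did not pass. Of 12 tested Hippo pathway genes 1 rose, 2 fell (1 with arrays centred) and 9 did not pass. Yap1, which encodes the transcriptional co-activator, rose to 8.03 ± 0.04 in Rarb-null arrays against 7.79 ± 0.07 in WT arrays (0.24, SE 0.037, limma adjusted p = 0.000628), with no overlap. The kinase activator gene Mob1b (-0.25) and the kinase gene Stk4 (-0.12) were the 2 falls, and the falls numbered 0 to 4 without 1 array (0 without Rarb-null replicate 2 or WT replicate 1 or 4, and 4 without Rarb-null replicate 5). Of 15 tested YAP target genes other than the CCN genes 4 fell and 2 rose (1 rise without Rarb-null replicate 4 or 5 or WT replicate 4, 5 or 6, and 3 to 4 falls), or 3 and 3 with arrays centred, and 9 did not pass, with a median of -0.038. Nt5e, the ecto-5'-nucleotidase gene, fell by 0.78 (SE 0.039, adjusted p = 2.72e-08), the tissue factor gene F3 by 0.27 (SE 0.056, adjusted p = 0.00544) and Asap1 by 0.16 (SE 0.041, adjusted p = 0.0198). Crim1 rose by 0.21 (SE 0.044, adjusted p = 0.00484).

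Among upstream inputs, Tgfb3, the gene of transforming growth factor beta 3, fell to 8.16 ± 0.17 in Rarb-null arrays against 8.82 ± 0.08 in WT arrays (-0.66, SE 0.068, limma adjusted p = 2.19e-05). Of 14 tested genes of TGF-beta and serum response factor signalling 3 fell and 0 rose, or 2 and 1 with arrays centred, with a median of -0.023, the others being Tgfbr3 (-0.18) and Smad4 (-0.11). Smad4 kept its call only without Rarb-null replicate 1 or WT replicate 2 or 5. Of 6 tested Wnt readout genes limma called 0, and 1 had an unadjusted p under 0.05, Lef1 (0.095, adjusted p = 0.129). Of 7 tested immediate early genes Fosb rose by 0.18 and Egr1 fell by 0.15, a rise lost without Rarb-null replicate 5 and a fall lost without Rarb-null replicate 2, 3 or 4 or WT replicate 4 or 5 and with arrays centred.

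Of 7 other matricellular genes tested, 2 rose and 2 fell, or 3 and 2 with arrays centred, with a median of 0.10. Tnr, the gene of tenascin-R in perineuronal nets, rose by 0.27 (SE 0.038, limma adjusted p = 0.000285), and the thrombospondin gene Thbs1 by 0.20 (SE 0.061, adjusted p = 0.0366). Sparc and Sparcl1, both expressed by glia, fell by 0.22 (SE 0.049, adjusted p = 0.00748) and 0.13 (SE 0.026, adjusted p = 0.00518). Thbs1 passed the filter through its Rarb-null level of 7.11, against 6.91 in WT arrays, below the filter, and had an adjusted p of 0.0499 in the limma fit without a filter. Its call was lost without Rarb-null replicate 1, 2 or 5 or WT replicate 1, 3, 4 or 5.

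Markers of the cells a punch could hold are given beside the CCN genes as levels. The mean of the 6 cortical excitatory markers ran from 8.33 to 9.21 in Rarb-null and from 7.55 to 8.64 in WT arrays, and 1 of 5 tested rose, Emx1 (0.22, SE 0.055, limma adjusted p = 0.0143). That count was 4 without WT replicate 2, 2 without WT replicate 5 and 5 of 5 with a replicate block (Slc17a7 included). The block compares same-numbered arrays, so WT replicate 6, which has no partner, adds nothing to its differences. The count was 0 with Rarb-null replicate 5 and WT replicates 3 and 4 removed, arrays picked by Slc17a7, itself one of these markers. The 5 layer 6b and claustrum markers had means of 7.96 to 8.27 in Rarb-null and 7.62 to 7.95 in WT arrays. Of the 4 tested, Nxph4, like Ccn2 a marker of layer 6b, rose to 7.57 ± 0.10 in Rarb-null against 6.89 ± 0.23 in WT arrays (0.68, SE 0.096, adjusted p = 0.000324), Gnb4 rose by 0.22 (SE 0.041) and Moxd1 fell by 0.29 (SE 0.063). Nxph4 passed the filter through its level in Rarb-null arrays, and its adjusted p was 0.000488 in the limma fit without a filter. Nr4a2 gave 0.66 (SE 0.22, adjusted p = 0.054), a value that passed without WT replicate 2, with a filter at the 60th percentile, with arrays centred (0.70), with quantile normalisation repeated, with array weights and with a replicate block. The part of these markers in the difference of Ccn2 and Ccn3 was not tested beyond the fits with them in the model. The fit with the layer 6b and claustrum mean cannot settle it, since that mean did not overlap between genotypes.

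Fibroblast markers ran from 6.90 to 7.06 in Rarb-null and from 6.77 to 6.97 in WT arrays over 8 genes. Of 5 tested, Col1a1 (0.15) and Col1a2 (0.14) rose, in 0 to 3 calls without 1 array (0 without Rarb-null replicate 2, 3 or 5 or WT replicate 1, 4 or 6, and 3 without WT replicate 2). Their part in the difference of Ccn5 was not tested, and r between Ccn5 and these markers within genotype was -0.034. Of 8 endothelial and 8 mural cell markers tested, limma called 0, and 2 had an unadjusted p under 0.05, the endothelial gene Tek (-0.10) and the pericyte gene Cspg4 (0.10).

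Astrocyte markers, which Ccn1 followed between mice, moved in both directions. Of 9 tested, 2 fell and 1 rose (4 falls without Rarb-null replicate 5, and 0 rises without Rarb-null replicate 2, 3, 4 or 5 or WT replicate 1, 3, 4 or 6). Aldh1l1 fell by 0.26 (SE 0.052, limma adjusted p = 0.0036) and Fgfr3 by 0.26 (SE 0.053, adjusted p = 0.00438), and Gfap was the rise (0.27, SE 0.085, adjusted p = 0.0392). Their mean was 9.56 ± 0.05 in Rarb-null and 9.64 ± 0.05 in WT arrays.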

How the data were processed

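Expression was measured on 11 arrays, 1 per mouse, from 100 ng of total RNA. The authors deposited log2 levels; RMA is named in the labels and in the submitters' processing notes, and base 2 was inferred from the range of values. RMA is meant to equalise brightness across arrays, and it compresses folds of dim genes. A small difference of scale remained between the genotypes. Medians of all probe sets ran from 7.082 to 7.107 in Rarb-null and from 7.016 to 7.057 in WT arrays. Their interquartile ranges ran from 3.378 to 3.486 and from 3.488 to 3.555. Groups came from the sample titles and the design text, since the protocol text swaps the 2 group sizes. Every array is a separate mouse. The number of arrays limits the precision; the files hold no background signal, and no batch is given in the sources used here.

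Probe sets were named from the platform annotation, updated through Entrez identifiers to RefSeq (GRCm38.p6) for 21698 of 21789 probe sets with 1 symbol; 1621 with several symbols were left out and 12146 were unnamed. The probe set with the highest mean stood for a gene, and the 11963 genes whose mean exceeded the 40th percentile were tested with limma 3.58.1 in R 4.3.3 (lmFit, eBayes), with Benjamini-Hochberg adjustment and a threshold of 0.05. Members and lists were chosen with earlier results of these data known. Named genes were the members, Rarb, Slc17a7, up to 4 genes of each list with the smallest p and the 8 genes most like Ccn3. Lists came from textbook knowledge, and 175 of their 186 genes had a probe set. On simulated data for Rarb-null against WT over 11963 genes, 84% of the changes of log2 0.25 and 100% at 0.85 were recovered, with 6 false calls. The simulation drew the noise of each gene independently, so variation shared between genes was absent. The recovery is a share of randomly picked genes and does not describe widely spread ones. In the real data Slc17a7, with a difference of 0.90, was not called. Figures were drawn with matplotlib 3.10.9.

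Alternatives were other filters, scalings and variance models, the mean of probe sets, a replicate block, marker covariates and leaving out arrays.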

Additional observations from a re-analysis of the deposited data

Results flagged for a closer look

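In 120 groups of arrays (60 named genes, 2 genotypes) 8 had an array far from the others by Dixon's criterion, where chance flags about 1 in 20, and no CCN gene was among them. Rarb-null replicate 5 was the highest Rarb-null array for Prss12, at 9.02 against 8.04 to 8.28 in the others, and for Nr4a2, at 9.60 against 8.45 to 8.68. It was the lowest for Smad4, at 10.88 against 10.95 to 10.97. Rarb-null replicate 2 was the lowest for Asap1, at 9.58 against 9.72 to 9.77, and Rarb-null replicate 3 the lowest for Sparcl1, at 12.68 against 12.72 to 12.73. WT replicate 6 was the lowest WT array for Sparcl1, at 12.80 against 12.85 to 12.86, for Fgfr3, at 9.29 against 9.49 to 9.61, and for Cspg4, at 7.85 against 7.96 to 8.01.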

How the results depend on the processing

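Over 22 alternatives the difference of Ccn2 ran from 0.431 to 0.925, that of Ccn3 from 0.168 to 1.05, that of Ccn4 from 0.103 to 0.184, that of Ccn5 from 0.189 to 0.268 and that of Ccn1 from -0.033 to 0.08, as descriptions of the contrast that chose them. The mean of cortical markers as covariate moved Ccn2 to 0.431 and Ccn3 to 0.168. Layer 6b and claustrum markers in place of Slc17a7 moved Ccn2 to 0.161, an extrapolation, since their mean did not overlap between genotypes. The cause was not tested beyond the covariates themselves. The 2341 genes called became 1325 with the cortical covariate, 1141 with an oligodendrocyte covariate, 1347 with Rarb-null replicate 5 and WT replicates 3 and 4 removed together, and 1547 to 2576 without 1 array, lowest without Rarb-null replicate 3. The 46 called genes of the lists became 28, 29 and 26 in the same fits and 29 with a filter at the 60th percentile, in which fewer genes are tested. With a replicate block the differences were 0.932 for Ccn3, 0.811 for Ccn2 and 0.216 for Ccn5 and 2872 genes were called. These differences come from 5 same-numbered pairs, and WT replicate 6, without a partner, adds nothing to them. Same-numbered arrays correlated from 0.06 to 0.43 in their deviations, and 2 of 5 pairs correlated best with their own number. The numbers were therefore not taken as pairs. In 6 WT arrays alone, where exact permutation p values cannot go below 0.00139, 0 relations passed after adjustment. Ccn1 with astrocyte markers was at that floor, with an exact permutation adjusted p of 0.0694. A single relation to markers could thus not pass, and the count of 0 decides nothing about them. In these arrays r was 0.954 and 0.891 for Ccn3 with Slc17a7 and the layer 6b markers, and 0.884 and 0.985 for Ccn2 with the same measures. It was 0.944 and 0.891 for Ccn1 with astrocyte markers and immediate early genes, and 0.89 for Ccn2 with Ccn3. Without 1 array r ran from 0.741 to 0.909 for Ccn2 with Slc17a7, from 0.93 to 0.975 for Ccn2 with layer 6b markers, from 0.713 to 0.904 for Ccn2 with Ccn3 and from 0.696 to 0.876 for Ccn1 with immediate early genes; the last lost its call with arrays centred (0.781) and without the 2 arrays farthest from the marker median (0.609). Of 1726 values of 80 other named genes 191 lost and 37 gained a call and 0 reversed.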

Other observations

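Genes of other cells near the accumbens gave a mixed picture in Rarb-null against WT arrays. Of 4 tested lateral septum markers 2 rose, the urocortin receptor gene Crhr2 by 0.36 (SE 0.051, limma adjusted p = 0.000309) and Trpc4 by 0.30 (SE 0.085, adjusted p = 0.0258), the second lost without Rarb-null replicate 2 or 5 or WT replicate 4 or 6. Crhr2 passed the filter on low levels through its Rarb-null level of 7.19, against 6.83 in WT arrays, and had a limma adjusted p of 0.000545 without that filter. Of 5 tested interneuron markers Npy rose by 0.40 (SE 0.071, adjusted p = 0.00195) and Chat fell by 0.18 (SE 0.048, adjusted p = 0.0206), a call lost without Rarb-null replicate 3, and WT replicate 2 left out gave 2 rises. Of 2 tested ependymal and choroid plexus genes Kl fell by 0.41 (SE 0.045, adjusted p = 3.24e-05) and Ccdc153 rose by 0.19 (SE 0.05, adjusted p = 0.0194), a call lost without Rarb-null replicate 2. Ccdc153 averaged 7.17 in Rarb-null and 6.98 in WT arrays, the second below the filter, and its limma adjusted p was 0.0297 without it.

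Of 10 tested striatal projection neuron genes 7 fell and 0 rose (4 falls with the cortical marker covariate), including the substance P precursor gene Tac1 (-0.39, SE 0.037) and Rgs9 (-0.42, SE 0.039), with limma adjusted p of 8.97e-06 and 1.02e-05. Of 7 tested oligodendrocyte genes 3 fell and 0 rose, led by Opalin (-0.35, SE 0.046, adjusted p = 0.000171), with Mag (-0.23) and Cnp (-0.14), and the falls numbered 1 without Rarb-null replicate 1 or 4 or WT replicate 1, 4, 5 or 6 and with arrays centred. Of 6 tested microglia genes limma called 0 (1 rise with arrays centred), and 2 of them had an unadjusted p under 0.05, Cx3cr1 (0.10) and C1qa (-0.12).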
